A study of Mus musculus with 12 samples.

Results

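Cortex and cerebellum of SCA1 KI mice were compared in 6 of the 12 RNA-seq libraries of the study: the 3 libraries of SCA1 KI cortex and the 3 of SCA1 KI cerebellum, chosen by the region and genotype that their labels give. The remaining 6 libraries, 3 of WT cortex and 3 of WT cerebellum, served to say which regional differences were narrower or wider in SCA1 KI than in WT. SCA1 KI mice carried Atxn1 [154Q/2Q], that is, 1 Atxn1 allele with a long CAG repeat under its own regulatory elements and 1 with the normal mouse repeat, and WT littermates lacked the long repeat. All animals were C57BL/6J and 12 weeks old, the labels call them male, and the study's methods speak of both sexes. The tissue was the whole macro-dissected region, so a lower value can stand for fewer cells of a type or for less RNA per cell, and these cannot be told apart here. The cortical and cerebellar libraries came from separate experiments, so that region and experiment cannot be told apart in the regional comparison, whereas each region was sequenced with WT libraries of its own. Nothing in the labels says more of the replicates than that they are separate samples, so p-values measure the spread between these samples.

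Spinocerebellar ataxia type 1 is a polyglutamine disorder in which Purkinje cells, the output neurons of the cerebellar cortex, degenerate. Granule cells, the most numerous neurons of the cerebellum, send parallel fibres to Purkinje cells and are set apart by Zic and En transcription factors and by the Gabra6 subunit of the GABA-A receptor. Cortex is built from layered glutamatergic pyramidal neurons, specified by factors such as Tbr1 and Fezf2, and from GABAergic interneurons that arise from Dlx-positive and Lhx6-positive precursors. The rostral brain as a whole is patterned by Otx factors, the dorsal telencephalon by Emx factors, and the isthmus and hindbrain by En, Pax2, Irx and Hox factors.

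The deposited table gave read counts divided by a size factor for each library, called normalized counts here. Each library held between 29520855 and 51311309 counted reads, the SCA1 KI cortical ones between 36770183 and 39927889 and the SCA1 KI cerebellar ones between 36222298 and 51311309. Of 15759 entries, 15369 whose normalized counts averaged 10 or more were tested with limma on log2(normalized count + 1), a scale that understates the change of genes with few counts. LFC is the difference of the means of 3 and 3 libraries on that scale, its SE comes from the spread that all 12 libraries share, moderated by limma, and adjusted p is Benjamini-Hochberg adjusted over all tested genes. Regional and genotype differences were called where the absolute LFC exceeded 0.25 and the adjusted p was under 0.05. The region by genotype interaction, the regional LFC of SCA1 KI minus that of WT, was called at an adjusted p under 0.05.

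Regional labels matched the genes that define the regions. Emx1, a patterning factor of the dorsal telencephalon, had 915, 667 and 524 normalized counts in SCA1 KI cortex and 1.69, 0 and 5.81 in SCA1 KI cerebellum. Gabra6 had 0, 3.04 and 1.80 in SCA1 KI cortex and 30845, 32164 and 32033 in SCA1 KI cerebellum. Pcp2, a Purkinje cell protein, had 0, 1.01 and 0.901 in SCA1 KI cortex and 7790, 8031 and 7439 in SCA1 KI cerebellum. Cortical and cerebellar libraries thus lay far apart for each of these genes. Atxn1 itself (chromosome 13, 45549755 to 45965008, GRCm38) gave no check of the genotype, because the counts do not separate the repeat lengths. Of Xist and the Y-linked Ddx3y, Uty, Kdm5d and Eif2s3y, 4 were tested. Their median on the log2 scale was 9.80 to 10.5 over the 12 libraries, so that Y-linked genes were expressed in every library.

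**Figure D1:**
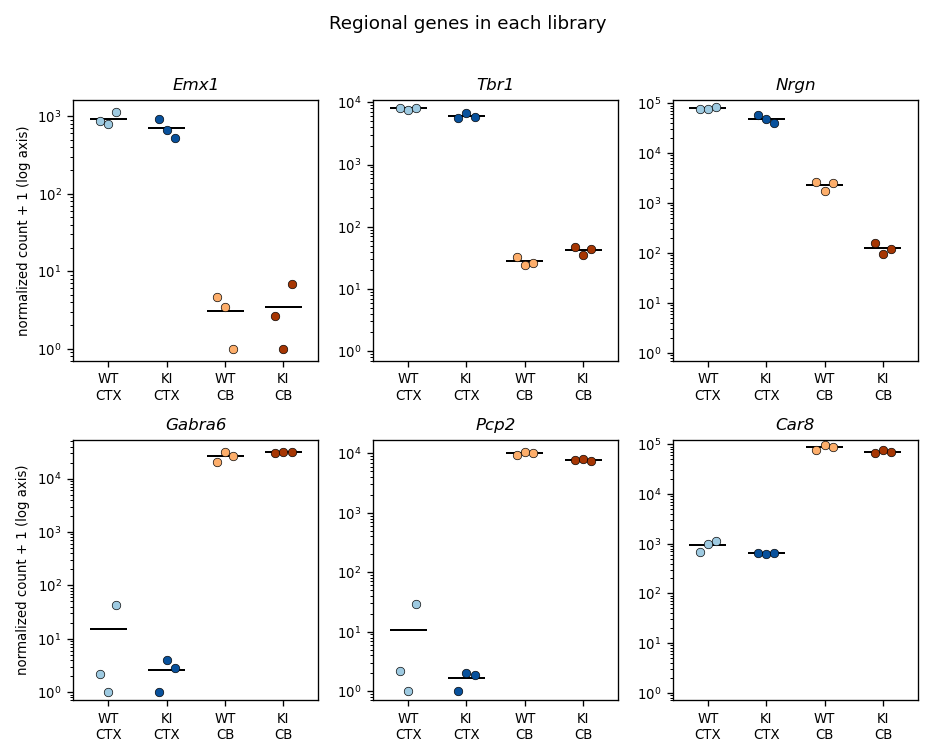
Normalized counts plus 1 (log axis) of 6 regional genes in each of the 12 libraries, grouped by genotype and region (CTX, cortex, and CB, cerebellum). Points are libraries and lines are group means. Emx1, Tbr1 and Nrgn were higher in every cortical library, and Gabra6, Pcp2 and Car8 in every cerebellar one.

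Libraries of several groups stood apart, mostly in genes of neighbouring brain tissue. The 3 WT cerebella carried some transcripts of thalamus and midbrain that the SCA1 KI cerebella had at far lower levels. Tcf7l2, a transcription factor of the thalamus and dorsal midbrain, had 2404, 1480 and 2051 normalized counts in the WT cerebella against 223, 210 and 249 in the SCA1 KI cerebella. Lhx9 had 727, 418 and 571 against 43.8, 32.3 and 46.5. Among factors of cortical pyramidal neurons, Emx1 was at 3.65, 2.44 and 0 in the WT cerebella and Fezf2 at 0.913, 0 and 1.16. Of the 26 factors in that list, however, 9 were below WT in SCA1 KI cerebellum and 2 were higher, and the 9 included Lhx2, Emx2, Otx1 and Ldb2. Among all tested genes, 4.44% were below WT there and 0.917% were higher. WT cerebellum library 2 had the lowest Gabra6 of its region, 20711, and the highest sum over 18 oligodendrocyte genes, 305680. WT cerebellum libraries 4 and 6 had sums of 206481 and 228193, and the SCA1 KI cerebella 174780 to 176139. SCA1 KI cortex library F held 152 normalized counts of the serotonin transporter Slc6a4, where the other 2 SCA1 KI cortices held 0.986 and 3.04, and 2000 of Calb2, where they held 624 and 340. WT cortex library B had a sum of 38064 over 18 striatal genes, where the other 2 WT cortices had 20159 and 22578, and of 159789 over the oligodendrocyte genes, where they had 102503 and 95372. SCA1 KI cortex library A was the most distant of its group, with a chi-square per gene of 33.8 and 36.9 from the other 2 libraries, which differed from each other by 10.6. Ttr, the choroid plexus transcript, ranged from 365 to 69182 over the 6 cerebellar libraries. These values are taken up beside the results they touch.

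Regional calls in SCA1 KI mice were numerous, with 4912 genes higher in cortex (32.0% of those tested) and 4682 higher in cerebellum (30.5%). Among them, 2089 had an LFC over 1 toward cortex and 1533 toward cerebellum. At an absolute LFC over 3 there were 504 cortical and 252 cerebellar genes, and at over 5 there were 145 and 69. The 3 and 3 SCA1 KI libraries did not overlap in 9457 of the called genes, and they did not overlap in 74.3% of all tested genes. The median LFC over all tested genes was 0.0055.

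On the cortical side the largest LFC with at least 50 normalized counts in the cerebellum belonged to Nrgn, the postsynaptic calmodulin-binding protein neurogranin (chromosome 9, 37544492 to 37552904). Nrgn had 58465, 47828 and 39867 normalized counts in SCA1 KI cortex and 155, 96.8 and 118 in SCA1 KI cerebellum (LFC 8.62 ± 0.18, adjusted p = 2.20e-12). Ptk2b, a calcium-activated tyrosine kinase, followed with 16015, 18590 and 15266 against 104, 125 and 183 (LFC 6.94 ± 0.16). Stx1a, a presynaptic membrane-fusion protein, had 10434, 8916 and 7362 against 79.2, 65.2 and 81.3 (LFC 6.86 ± 0.23). All of these cortical libraries lay more than an order of magnitude above all of the cerebellar ones. Ctxn1 (LFC 6.77), the potassium channel subunit Kcnf1 (6.67), the calcium-binding copine Cpne6 (6.07), the A-type channel partner Kcnip2 (5.95) and Islr2 (5.93) completed the 8 largest. All but Stx1a and Kcnf1 were widened against WT, the calls of Ctxn1 and Islr2 being lost when libraries were left out.

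On the cerebellar side the largest belonged to Car8, which binds the inositol trisphosphate receptor and is abundant in Purkinje cells (chromosome 4, 8143362 to 8239041). Car8 had 68038, 77037 and 68971 normalized counts in SCA1 KI cerebellum and 651, 634 and 660 in SCA1 KI cortex (LFC -6.78 ± 0.14, adjusted p = 2.27e-12). Cbln1, which granule cells release to organise their synapses on Purkinje cells, had 25424, 22142 and 25989 against 162, 221 and 395 (LFC -6.66 ± 0.25). Il16 (-6.38), the granule lineage factor Zic1 (-5.74), Mab21l1 (-5.64), A2m (-5.64), the isthmic factor En2 (-5.50) and the postsynaptic scaffold Homer3 (-5.23) came next. Among these 8, En2 alone was called in the interaction.

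Lists of cell type and pathway genes showed the composition of that difference. Beside their counts stand the shares over all tested genes, 32.0% higher in SCA1 KI cortex and 30.5% in SCA1 KI cerebellum. Of 26 factors of cortical excitatory neuron identity, 22 were higher in SCA1 KI cortex and 4 in the cerebellum, with a median LFC of 3.08. Of 30 genes of cortical excitatory synapses and signalling, 28 were higher in cortex (median 3.76), and of 25 genes of cortical interneurons, 18 were (median 5.38). Tbr1, a factor of deep-layer neurons, had 5676, 6747 and 5808 normalized counts in SCA1 KI cortex and 46.3, 33.6 and 42.6 in the cerebellum (LFC 7.19 ± 0.13). Camk2a, the alpha subunit of the synaptic calcium kinase, had 78116, 89382 and 78498 against 2981, 3232 and 2871 (LFC 4.76 ± 0.09). The 7 interneuron genes that were higher in cerebellum included Calb2 (LFC -4.82), Reln (-2.93) and Cnr1 (-2.11), which cerebellar neurons also express.

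Of 32 granule cell genes, 29 were higher in SCA1 KI cerebellum (median LFC -4.15), and of 43 Purkinje cell genes, 39 were (median -2.98). Itpr1, the calcium release channel on which Purkinje cell signalling relies, had 141041, 149914 and 131212 normalized counts in SCA1 KI cerebellum and 17419, 22203 and 20180 in the cortex (LFC -2.82 ± 0.10). Calb1, their calcium buffer, had 34696, 38569 and 34611 against 6058, 5459 and 4401 (LFC -2.77 ± 0.12). Bergmann glia and cerebellar astrocytes, the glia that ensheathe Purkinje cell synapses, were represented by 17 genes, of which 15 were higher in cerebellum (median -1.37). Gdf10 of Bergmann glia had 4753, 4771 and 4615 normalized counts there and 238, 272 and 285 in the cortex.

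Glial and vascular lists divided. All 16 microglial genes were higher in SCA1 KI cortex (median LFC 1.82), and none of them was called in the interaction. The homeostatic receptor P2ry12 had 2119, 2070 and 2010 normalized counts in SCA1 KI cortex against 437, 422 and 440 in the cerebellum (LFC 2.25 ± 0.11). Oligodendrocyte genes were higher in cerebellum for 12 of 18 members (median -0.64). None of the 18 was called in the interaction, but 11 were without WT cortex library B, among them Mog, the myelin oligodendrocyte glycoprotein. The interaction LFC of Mog was then 0.75 (adjusted p = 0.0196). Astrocyte genes were higher in cerebellum for 12 of 16 members (median -0.50), with the glutamate transporter Slc1a2 in the opposite direction (LFC 1.39 ± 0.15). None of 15 endothelial and mural cell genes was called between the regions (median -0.05). Choroid plexus genes were higher in cerebellum for 13 of 17 members, and their summed level ran from 7655 to 129430 over the 3 SCA1 KI cerebella.

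Receptor and channel families were shared out between the regions. For comparison, 32.0% of all tested genes were higher in SCA1 KI cortex and 30.5% in SCA1 KI cerebellum. Of 35 voltage-gated potassium channel alpha subunits, 24 were higher in SCA1 KI cortex (median LFC 1.96) and 8 in the cerebellum. The latter included the fast delayed rectifier Kcnc1 (LFC -1.80). Of 15 GABA-A receptor subunits, 9 were higher in cortex and 4 in cerebellum, of 18 ionotropic glutamate receptor subunits 7 and 7, and of 7 metabotropic glutamate receptors 5 and 2. The NMDA receptor subunit Grin2b had 3401, 5702 and 4502 normalized counts in SCA1 KI cortex against 336, 369 and 356 in the cerebellum (LFC 3.65 ± 0.18), while Grin2c was higher in cerebellum (LFC -2.88 ± 0.15). Calcium channel subunits numbered 6 toward cortex and 9 toward cerebellum of 16, and sodium channel subunits 2 and 3 of 7.

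The second question was how far these differences deviated from those of WT mice. WT cortex and cerebellum differed in 9482 genes, 4760 higher in cortex and 4722 in cerebellum, and 7917 genes were called in the same direction in both genotypes. Another 77 genes were called in opposite directions. Across genes, the SCA1 KI and WT regional LFC had a Pearson r of 0.919, a description over genes that are not independent replicates. The interaction was called for 1253 genes (8.15% of those tested). In what follows a gene with a WT regional call is narrowed if its SCA1 KI LFC kept the sign and was smaller, widened if it kept the sign and was larger, and inverted if the fitted sign turned. A gene without a WT regional call but with one in SCA1 KI is gained.

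By these definitions 462 genes were narrowed (3.01% of those tested), 377 were widened (2.45%), 178 were inverted and 206 were gained, while 30 were in none of these classes. Narrowing was mostly cortical, with 363 of the 462 genes cortex-high in WT and 99 cerebellum-high. Of WT cortex-high genes 7.63% were narrowed and 4.75% widened, and of WT cerebellum-high genes 2.10% and 3.20%. With limits of 1 on both the absolute interaction and the absolute regional LFC, 66 cortex-high genes were narrowed and 122 widened. A difference that keeps its sign can narrow by no more than its WT size, whereas widening has no such bound. The order of these 2 counts is therefore partly set by the definitions. Without WT cerebellum library 2 and SCA1 KI cortex library F, an alternative added after the data were seen, 978 genes were called, with 277 narrowed and 178 widened on the cortical side and 85 and 148 on the cerebellar side. Leaving out SCA1 KI cerebellum library 1 lowered the count to 783, with 229 narrowed and 145 widened cortex-high genes, 48 narrowed and 95 widened cerebellum-high genes and 137 gained genes. Leaving out library 3 of that group gave 833, with 51 narrowed and 100 widened cerebellum-high genes and 135 gained genes. The narrowed cerebellum-high genes fell to 54 without SCA1 KI cerebellum library 5, to 58 without WT cerebellum library 6 and to 61 without WT cortex library C, which also left 139 widened cortex-high genes.

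**Figure D2:**
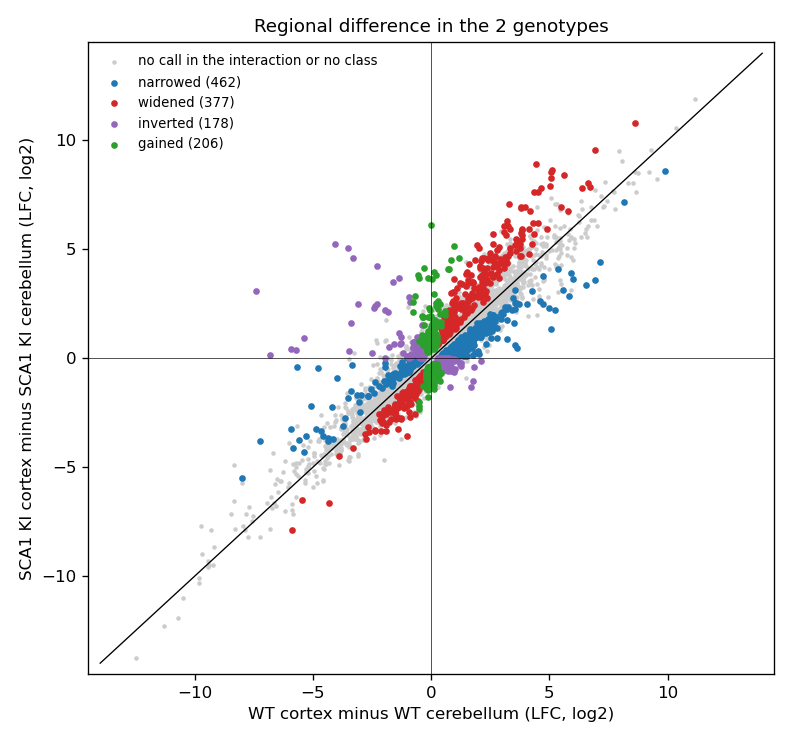
Regional LFC (cortex minus cerebellum, log2) of 15369 genes in WT (x axis) and in SCA1 KI (y axis), with the diagonal of equal differences. Coloured points are the 462 narrowed, 377 widened, 178 inverted and 206 gained genes. Widened genes extend along the upper right, while narrowed genes gather at moderate differences.

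A class says nothing of which region moved, so SCA1 KI was also set against WT within each region, on libraries that the interaction uses too. Over all tested genes, 10.8% were lower and 4.82% higher in SCA1 KI than in WT cortex, and 4.44% were lower and 0.917% higher in SCA1 KI than in WT cerebellum. Of the 363 narrowed cortex-high genes, 329 were lower in SCA1 KI cortex and 20 were higher in SCA1 KI cerebellum. Of the 151 widened cerebellum-high genes, 130 were lower in SCA1 KI cortex. The 226 widened cortex-high genes had another make-up, since 162 of them were lower in SCA1 KI cerebellum and 56 were higher in SCA1 KI cortex. Their median LFC of SCA1 KI against WT was -1.09 in cerebellum and 0.19 in cortex. Of the 99 narrowed cerebellum-high genes, 59 were higher in SCA1 KI cortex and 22 were lower in SCA1 KI cerebellum.

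**Figure D3:**
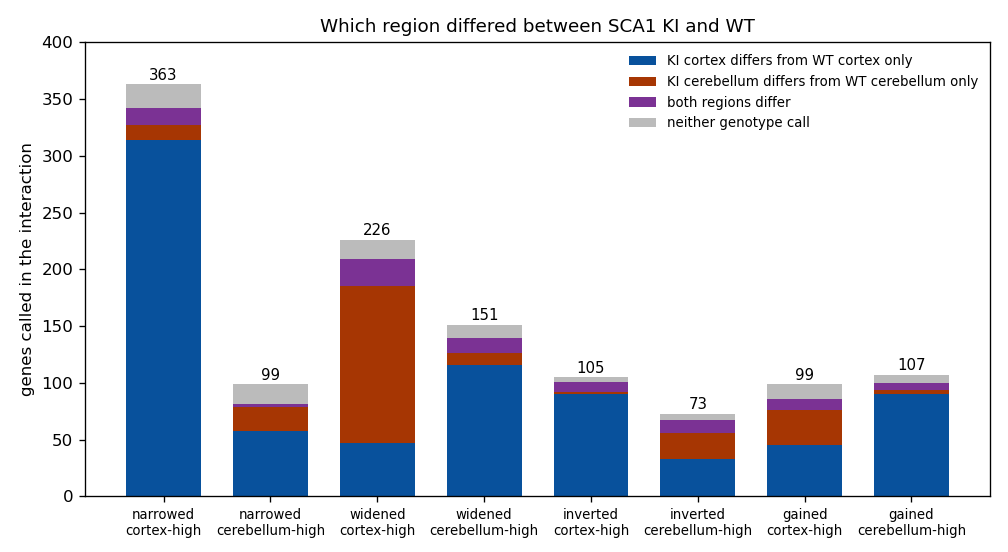
Number of genes called in the interaction (y axis) by class and by the region in which they were higher in WT, or in SCA1 KI for gained genes. Colours give whether SCA1 KI differed from WT in cortex only, in cerebellum only, in both or in neither. Cortex alone differed for 314 of 363 narrowed cortex-high genes, and cerebellum alone for 138 of 226 widened cortex-high genes.

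The 6 narrowed cortex-high genes with the smallest p are described first. Mgll, the lipase that degrades the endocannabinoid 2-arachidonoylglycerol (chromosome 6, 88724412 to 88828360), had 7208, 7472 and 7663 normalized counts in SCA1 KI cortex against 12634, 13600 and 14699 in WT cortex. Its cerebellar counts were 4959, 4479 and 4774 in SCA1 KI and 4268, 4302 and 4565 in WT, so the regional LFC was 0.65 in SCA1 KI and 1.64 in WT (interaction -0.98 ± 0.09, adjusted p = 1.55e-04). The SCA1 KI cortices lay between the cerebella and the WT cortices without overlap. Plcb1, a phospholipase C that acts downstream of Gq-coupled receptors (chromosome 2, 134786067 to 135475258), had 10818, 11816 and 11140 in SCA1 KI cortex against 18344, 18373 and 17985 in WT cortex, with regional LFC of 0.96 and 1.80. Adra1d, a Gq-coupled alpha-1 adrenergic receptor, had 668, 643 and 664 against 1759, 2367 and 1675, with regional LFC of 1.73 and 3.21. The tyrosine phosphatase Ptpn3 (regional LFC 0.92 in SCA1 KI and 1.86 in WT) and the membrane protein gene Ly6e (0.48 and 1.40) were alike in pattern. Stard8, a GTPase-activating protein, was no longer called between the regions of SCA1 KI (LFC 0.19 ± 0.13, against 2.03 in WT).

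Excitatory synapse genes were among them. Of the 30 genes in that list, 7 were narrowed and 7 widened, where 3.01% and 2.45% of all tested genes were. In SCA1 KI cortex 18 were below WT, and in SCA1 KI cerebellum 12 were, where 10.8% and 4.44% of all tested genes were. Slc17a7, the main vesicular glutamate transporter of cortical pyramidal and cerebellar granule cells, had 41760, 47425 and 41176 normalized counts in SCA1 KI cortex against 61714, 59871 and 62252 in WT cortex. The regional LFC was then 1.21 in SCA1 KI and 2.07 in WT (interaction -0.85 ± 0.16). Itpka, a kinase of dendritic spines, had 3082, 2841 and 2461 against 6519, 7015 and 8440, with regional LFC of 0.81 and 1.78. The summed level of the list was 425212 to 488375 in SCA1 KI cortex and 712382 to 742413 in WT cortex, and 99954 to 107937 and 99978 to 113476 in the cerebella. A few abundant genes set such a sum, and the median log2 level of the list was 9.20 to 9.31 in the SCA1 KI cerebella, below the 10.40 to 10.50 of the WT cerebella. Sstr3, Ncald, Dlgap3, Arpp19 and Arpp21 were the other narrowed members. The widened members were Cnih3, Ptk2b, Egr3, Kcnh3, Nrgn, Icam5 and Ddn, and the part of neighbouring tissue of the WT cerebella in these was not tested. The postsynaptic scaffold Shank3 was inverted (LFC -0.31 in SCA1 KI, a call that was lost when libraries were left out, and 0.50 in WT).

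Identity factors of cortical neurons were divided as well, with 5 narrowed and 7 widened of 26, beside 3.01% and 2.45% of all tested genes. Cux2, a factor of upper-layer neurons, had 3536, 3843 and 3168 normalized counts in SCA1 KI cortex against 5599, 5183 and 5615 in WT cortex, and its regional LFC was 1.04 in SCA1 KI and 1.67 in WT (interaction -0.62 ± 0.11). Tbr1 had a regional LFC of 7.19 in SCA1 KI and 8.17 in WT, with 46.3, 33.6 and 42.6 normalized counts in the SCA1 KI cerebella and 32.0, 23.2 and 25.6 in the WT cerebella. Foxp1, Sox5 and Tshz3 were narrowed too, each with a call that was lost when libraries were left out. The widened members were Lhx2, Ldb2, Pou3f1, Emx2, Otx1, Bcl11b and Pou3f2, and the calls of the last 4 were lost when libraries were left out. Of the 26 factors, 13 were called in the interaction, and 7 to 11 were when 1 library was left out. Fezf2 and Emx1 had no interaction call.

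Immediate early genes, which neurons transcribe upon activity, were higher in SCA1 KI cortex for 10 of 16 members, where 32.0% of all tested genes were. Their median LFC was 1.85 in SCA1 KI and 2.72 in WT. Arc, which acts in synaptic plasticity, had 4176, 4421 and 3654 normalized counts in SCA1 KI cortex against 9641, 14995 and 8367 in WT cortex, while the cerebella ranged from 711 to 989 over both genotypes. Its regional LFC was 2.27 in SCA1 KI and 3.54 in WT (interaction -1.28 ± 0.25, adjusted p = 7.28e-03). Homer1 was narrowed with a call that depended on the libraries left out, Egr3 was widened except in edgeR, and Dusp1 was inverted. The other 12 members had no interaction call, while 8.15% of all tested genes had one.

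**Figure D4:**
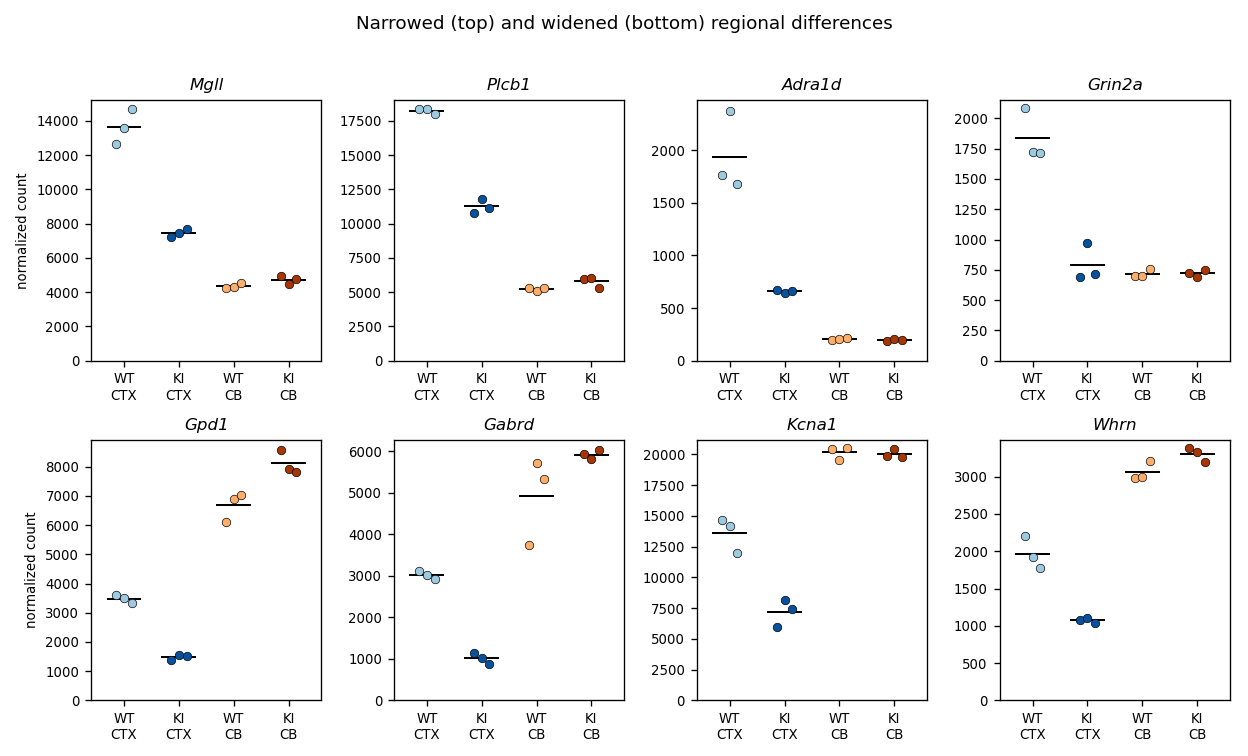
Normalized counts (linear axis from 0) of 4 narrowed cortex-high genes (top) and 4 widened cerebellum-high genes (bottom) in each of the 12 libraries. Points are libraries and lines are group means. In all 8 genes the SCA1 KI cortices lay below the WT cortices.

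Widened cerebellum-high genes had the same cortical side. Gpd1, the glycerol-3-phosphate dehydrogenase of the cytosol (chromosome 15, 99717515 to 99725005), had 1379, 1569 and 1517 normalized counts in SCA1 KI cortex against 3598, 3504 and 3330 in WT cortex. Its cerebellar counts were 8570, 7930 and 7833 in SCA1 KI and 6121, 6900 and 7021 in WT, so the regional LFC was -2.45 in SCA1 KI and -0.94 in WT (interaction -1.51 ± 0.10, adjusted p = 2.66e-05). Gabrd, the delta subunit of extrasynaptic GABA-A receptors (chromosome 4, 155384980 to 155398112), had 1144, 1024 and 888 in SCA1 KI cortex against 3122, 3020 and 2929 in WT cortex. Its cerebellar counts were 5920, 5803 and 6023 in SCA1 KI and 3731, 5718 and 5336 in WT, and the regional LFC was -2.54 and -0.68. Both genes had lower normalized counts in the SCA1 KI cortices than in any other library. Whrn, Mapk6, Proser2 and Tspan11 followed, with regional LFC in SCA1 KI of -1.62, -1.34, -3.26 and -3.59 against -0.64, -0.67, -1.40 and -1.03 in WT. For Tspan11 the SCA1 KI cortices held 39.4, 77.9 and 69.4 normalized counts and the WT cortices 482, 505 and 582. Of 15 GABA-A receptor subunits 4 were widened, and beside Gabrd these included the common synaptic subunit Gabrb2 (-0.76 in SCA1 KI and -0.27 in WT). Of 16 astrocyte genes 2 were widened, the glutamate transporter Slc1a3 (-1.37 and -0.91) and Lcat (-2.17 and -1.55). Over all tested genes the widened share was 2.45%. The interaction call of Slc1a3 was lost without SCA1 KI cerebellum library 3.

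Purkinje cell genes took part in both directions, with 7 narrowed and 5 widened of 43, beside 3.01% and 2.45% of all tested genes. Of the list, 16 genes were below WT in SCA1 KI cortex, and 12 were below WT in SCA1 KI cerebellum. The shares over all tested genes were 10.8% and 4.44%. Itpr1 was widened, since the SCA1 KI cortices had 17419, 22203 and 20180 normalized counts against 34629, 36281 and 34428 in the WT cortices (regional LFC -2.82 in SCA1 KI and -2.19 in WT). Plcb4, which links mGluR1 to calcium release, was widened from -1.77 in WT to -2.37 in SCA1 KI. Narrowed members turned on the cerebellum for Plcb3, with 1416, 1447 and 1445 in SCA1 KI cerebellum against 2433, 2858 and 2799 in WT cerebellum, and for Kctd12, an auxiliary subunit of GABA-B receptors (chromosome 14, 102976581 to 102982637), with 10450, 10568 and 10939 against 16709, 18586 and 17676. Their regional LFC were -1.18 and -1.07 in SCA1 KI and -1.90 and -1.91 in WT. For Slc1a6, the glutamate transporter of Purkinje cell spines, and Skor1, a corepressor, SCA1 KI cortex was higher than WT cortex, with 444, 415 and 431 against 279, 348 and 337 normalized counts for Slc1a6. Pcp2, Car8, Calb1 and Homer3 had no interaction call.

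Granule cell genes were widened in 5 of 32 and narrowed in 2, where 2.45% and 3.01% of all tested genes were. The widened Insm1 and the narrowed Slc17a7 were higher in cortex, not in cerebellum. The widened calls of Grin2c and Nfia were lost when libraries were left out. Beside Gabrd, the widened Cadps2, a protein of vesicle release, had 18241, 18242 and 18111 normalized counts in SCA1 KI cerebellum against 9046, 14172 and 12669 in WT cerebellum, and its regional LFC was -2.09 in SCA1 KI and -0.84 in WT. Library 2 gave the lowest of these WT values, as it did for Gabra6, and without it the interaction LFC of Cadps2 was -1.06 (adjusted p = 0.000295) in place of -1.25. The summed level of the list was 415817 to 424765 in the SCA1 KI cerebella and 325246 to 446119 in the WT cerebella.

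The other narrowed cerebellum-high genes with the smallest p were Klhl4, Ece2, Lgals8 and Ucma, which were higher in SCA1 KI than in WT cortex, and Tcf7l2. Ece2, a neuropeptide-processing peptidase, had 1097, 1144 and 1393 normalized counts in SCA1 KI cortex against 671, 628 and 700 in WT cortex, with regional LFC of -0.73 in SCA1 KI and -1.60 in WT. Ucma had 37.4, 37.4 and 40.5 against 8.32, 5.54 and 6.83, with regional LFC of -2.24 and -4.19. For Tcf7l2 it was the WT cerebella that stood apart, as given above, and the regional LFC of -0.29 ± 0.29 was not called in SCA1 KI, against -3.36 in WT.

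Widened cortex-high genes turned on low cerebellar values. Nrgn had 155, 96.8 and 118 normalized counts in SCA1 KI cerebellum and 2687, 1777 and 2480 in WT cerebellum, while the cortices had 58465, 47828 and 39867 in SCA1 KI and 76063, 76042 and 83271 in WT. Its regional LFC was thus 8.62 in SCA1 KI and 5.10 in WT (interaction 3.52 ± 0.26, adjusted p = 3.64e-05), although Nrgn was lower in SCA1 KI than in WT cortex. Gda, the guanine deaminase, had 44.7, 36.4 and 54.2 in SCA1 KI cerebellum against 545, 272 and 331 in WT cerebellum (regional LFC 5.61 in WT). In these genes the WT cerebella held the additional reads. Rasal1 (regional LFC 4.36 in SCA1 KI and 2.99 in WT), Zfp831 (8.28 and 5.08) and Crhbp behaved alike, and Crhbp had 1.69, 1.37 and 2.90 normalized counts in SCA1 KI cerebellum and 53.9, 31.8 and 47.8 in WT cerebellum. Cpne6 was also higher in SCA1 KI than in WT cortex, with 7804, 8282 and 7867 against 5788, 5061 and 5120.

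Interneuron genes were widened in 7 of 25 and narrowed in 1, where 2.45% and 3.01% of all tested genes were. Vip, the neuropeptide of a class of cortical interneurons, had 2.53, 0 and 1.94 normalized counts in SCA1 KI cerebellum and 130, 81.8 and 81.5 in WT cerebellum. Sst, the neuropeptide of another class, had 56.4, 41.2 and 72.6 against 864, 368 and 528, and its regional LFC was 5.92 in SCA1 KI and 3.32 in WT. Lhx6, Dlx1, Dlx2, Dlx5 and Dlx6, the factors of the cortical interneuron lineage, had no interaction call. Among forebrain factors Lhx2 was widened, with 14.3, 5.49 and 12.6 in SCA1 KI cerebellum against 153, 69.6 and 85.0 in WT cerebellum, and Emx1 was not called.

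**Figure D5:**
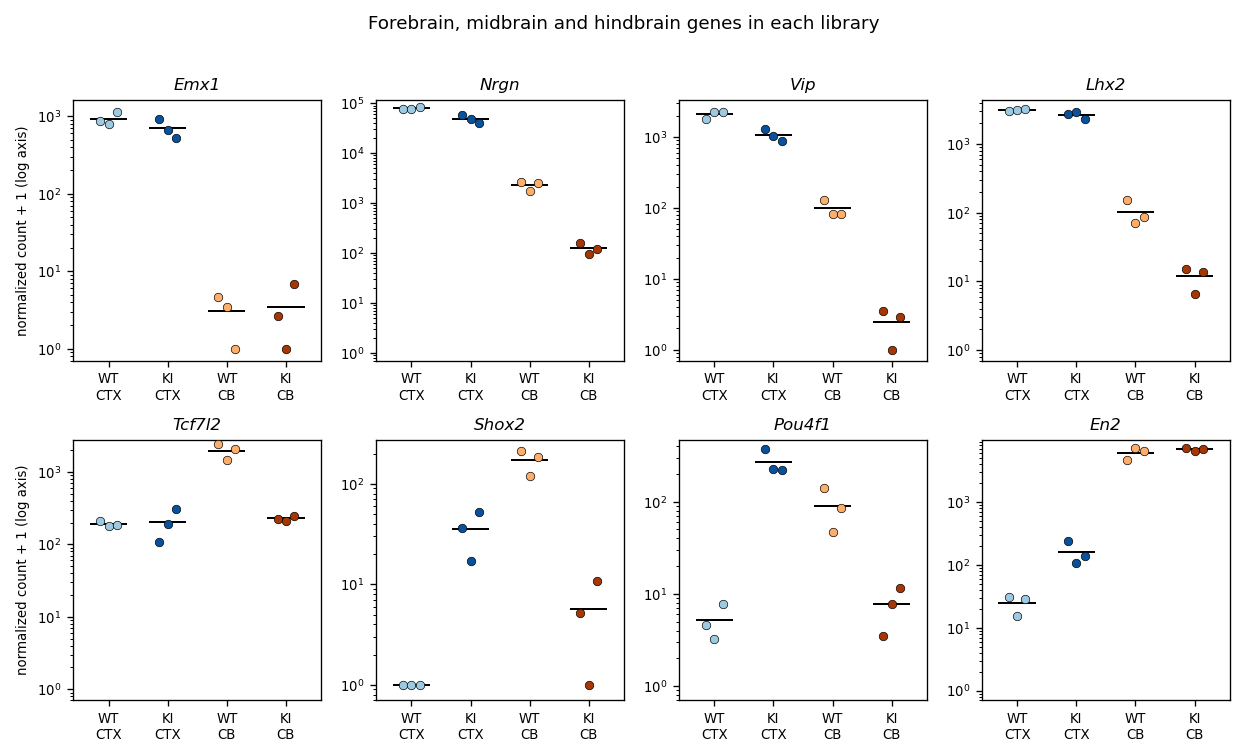
Normalized counts plus 1 (log axis) of 8 forebrain, thalamic, midbrain and isthmic genes in each of the 12 libraries, with points for libraries and lines for group means. Nrgn, Vip, Lhx2, Tcf7l2, Shox2 and Pou4f1 were higher in every WT cerebellum than in any SCA1 KI cerebellum, and Emx1 was at 0 to 5.81 normalized counts in all 6 cerebella.

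Some markers of neighbouring tissue were also below WT in SCA1 KI cerebellum, although most members of each list were not called. Of 17 thalamic genes tested, 8 were below WT and none was higher, of 17 midbrain genes 5, of 16 hippocampal genes 4, of 18 striatal genes 3, and of 15 brainstem and spinal genes 1, where 4.44% of all tested genes were below WT. The summed level of the 21 midbrain genes in the deposited table was 2459 to 2743 in the SCA1 KI cerebella and 3388 to 3807 in the WT cerebella. In cortex it was 1419 to 2952 in SCA1 KI and 803 to 984 in WT, and 3 of the 17 tested genes were higher in SCA1 KI cortex, where 4.82% of all tested genes were. In the SCA1 KI and WT cerebella the sum of the thalamic genes was 30386 to 31299 and 28537 to 31531. That of the 18 brainstem and spinal genes in the deposited table was 6693 to 7138 and 7245 to 12167. The hippocampal sum went the other way, from 21176 to 27201 in the WT cerebella to 33608 to 35557 in the SCA1 KI cerebella. Of the 16 hippocampal genes, 6 were higher in SCA1 KI cerebellum than in SCA1 KI cortex and 8 were lower. The 6 included Calb2, Il16 and Prox1, so that this sum does not measure hippocampal tissue alone. Most of the thalamic sum in cerebellum was Calb2, which cerebellar neurons express. The part of neighbouring tissue in the widened cortex-high and the inverted cerebellum-high genes was not tested.

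Inverted genes numbered 105 that were cortex-high in WT and 73 that were cerebellum-high. Of the former, 99 were below WT in SCA1 KI cortex. Of the latter, 43 were higher in SCA1 KI cortex and 34 were lower in SCA1 KI cerebellum. Mapk4, an atypical MAP kinase, had 2078, 2361 and 2308 normalized counts in SCA1 KI cortex against 4141, 4441 and 4358 in WT cortex, while its cerebellar counts lay between 2293 and 2522 in all 6 libraries. The regional LFC was then -0.09 ± 0.06, without a call, in SCA1 KI and 0.88 in WT (interaction -0.98 ± 0.09, adjusted p = 1.45e-04). Endou showed the same, with 44.3, 47.6 and 44.1 against 299, 224 and 342 in the cortices and 50.6, 51.5 and 45.5 in the SCA1 KI cerebella. For both genes the regional difference of WT was thus no longer called in SCA1 KI, rather than turned around.

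Position factors made up the other inverted genes with the smallest p. Pou4f1, a factor of habenular, midbrain and sensory neurons (chromosome 14, 104461676 to 104467999), had 372, 225 and 217 normalized counts in SCA1 KI cortex, 2.53, 6.87 and 10.6 in SCA1 KI cerebellum, 3.56, 2.21 and 6.83 in WT cortex and 139, 46.4 and 83.9 in WT cerebellum. Both regions therefore moved, cortex upward and cerebellum downward, and the regional LFC was 5.26 in SCA1 KI and -4.09 in WT. Shox2, a factor of thalamic and pretectal neurons, had 35.5, 16.2 and 51.4 in SCA1 KI cortex and 0 in all 3 WT cortices, against 4.21, 0 and 9.68 in SCA1 KI cerebellum and 210, 120 and 185 in WT cerebellum. Tfap2d had 3.37, 0.687 and 1.94 in SCA1 KI cerebellum and 214, 125 and 181 in WT cerebellum. These genes belong to the lists of neighbouring tissue given above, and the midbrain sum was also higher in the SCA1 KI cortices, whose part in Pou4f1, and in En2, Pax2 and Tal1 described next, was not tested.

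Hindbrain and isthmic factors, of which 16 of 34 were tested, were narrowed in 4 and inverted in 2, and 7 were higher in SCA1 KI than in WT cortex. Of all 15369 tested genes, 178 were inverted, 3.01% were narrowed and 4.82% were higher in SCA1 KI cortex. En2 had 239, 108 and 136 normalized counts in SCA1 KI cortex against 29.7, 14.4 and 27.3 in WT cortex, with 7275, 6551 and 7064 in SCA1 KI cerebellum. Its regional LFC was -5.50 in SCA1 KI and -7.99 in WT (interaction 2.48 ± 0.41, adjusted p = 2.99e-03). Pax2 had 346, 186 and 132 against 11.9, 19.9 and 39.8 in the cortices. Summed over the 30 members in the deposited table, the cortices held 484 to 815 normalized counts in SCA1 KI and 119 to 170 in WT, with 8 and 21 of the members at no more than 3 reads in every library. The granule cell marker Gabra6 stood at 0, 3.04 and 1.80 in the same SCA1 KI cortices and at 1.19, 0 and 42.1 in the WT cortices, the last in library D.

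Gained regional differences numbered 99 toward cortex and 107 toward cerebellum. Of the latter, 96 were below WT in SCA1 KI cortex. Lynx1, a modulator of nicotinic receptors (chromosome 15, 74747852 to 74753046), had 10557, 9848 and 10127 normalized counts in SCA1 KI cortex and 17462, 16759 and 16588 in SCA1 KI cerebellum (LFC -0.73 ± 0.05). The WT cortices had 18199, 19843 and 17811 and the WT cerebella 15680, 15808 and 15786, a difference of 0.24 that was under the limit of 0.25. Cux1, another factor of upper-layer neurons, had 3572, 3945 and 3760 against 6852, 6680 and 6766 in SCA1 KI, and its WT libraries ranged from 5425 to 6464 over both regions. Both genes were below WT in SCA1 KI cortex, without a genotype call in the cerebellum. Gpr158 (LFC -0.77 in SCA1 KI and 0.19 in WT) had the same direction. Toward cortex, Ahi1, a ciliary protein gene, had an LFC of 1.05 in SCA1 KI and -0.24 in WT. Tal1, a factor of midbrain and hindbrain GABAergic neurons and of blood, had 991, 509 and 497 in SCA1 KI cortex against 121, 115 and 125 in WT cortex, and 49.7, 45.3 and 50.3 in SCA1 KI cerebellum.

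Potassium channels held more widened than narrowed members, with 8 widened, 2 narrowed and 1 gained of 35. Over all tested genes, 2.45% were widened and 3.01% narrowed. Of the 35, 16 were below WT in SCA1 KI cortex and 17 in SCA1 KI cerebellum, where 10.8% and 4.44% of all tested genes were. Kcna1, a low-threshold channel of axons, had 5965, 8188 and 7413 normalized counts in SCA1 KI cortex against 14694, 14166 and 11983 in WT cortex, and 19848, 20461 and 19773 in SCA1 KI cerebellum. Its regional LFC was -1.49 in SCA1 KI and -0.57 in WT (interaction -0.92 ± 0.14, adjusted p = 2.20e-03). Kcna2, its partner, went from -0.48 in WT to -1.24 in SCA1 KI, and Kcnc1 from -1.22 to -1.80. Kcnc2, by contrast, was widened toward cortex, with 292, 290 and 379 in SCA1 KI cerebellum and 2191, 922 and 1510 in WT cerebellum.

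Among sodium channel subunits, Scn4b, an auxiliary subunit linked to resurgent current, had 938, 1106 and 1560 normalized counts in SCA1 KI cortex against 7614, 5585 and 5350 in WT cortex. The regional LFC was then -1.77 ± 0.20 in SCA1 KI and -0.14 in WT. Scn8a was inverted in sign (LFC -0.21 in SCA1 KI and 0.41 in WT), and Scn3a and Scn3b were widened toward cortex. Among calcium channel subunits, Cacna1i, a T-type channel, was inverted with calls in both genotypes (LFC -0.42 ± 0.09 in SCA1 KI and 0.67 in WT), because the SCA1 KI cortices had 3119, 4067 and 3928 normalized counts and the WT cortices 6714, 6607 and 6541.

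Glutamate receptor subunits were narrowed in 4 of 18 ionotropic and 2 of 7 metabotropic members, where 3.01% of all tested genes were. Grin2a, an NMDA receptor subunit of mature synapses (chromosome 16, 9567898 to 9995560), had 689, 975 and 718 normalized counts in SCA1 KI cortex and 725, 694 and 750 in SCA1 KI cerebellum, so that the libraries overlapped (LFC 0.12 ± 0.12). The WT cortices had 2082, 1718 and 1712 and the WT cerebella 697, 699 and 761 (LFC 1.35, interaction -1.23 ± 0.17, adjusted p = 1.12e-03). Grm2, a presynaptic autoreceptor, had 817, 838 and 1146 in SCA1 KI cortex against 2429, 2361 and 2745 in WT cortex, with regional LFC of 0.51 and 1.67. Grik5 and Grin1 were narrowed as well, Grin1 with a call that was lost when libraries were left out, whereas Grm5 was widened toward cortex, with 567, 575 and 617 in SCA1 KI cerebellum against 2720, 1373 and 1784 in WT cerebellum. Of the same lists, 8 ionotropic and 3 of the metabotropic members were below WT in SCA1 KI cortex, where 10.8% of all tested genes were.

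Calcium-regulated kinases and their inhibitors were higher in SCA1 KI cortex for 15 of 23 members, where 32.0% of all tested genes were. Their median LFC was 0.52 in SCA1 KI and 0.78 in WT. In SCA1 KI cortex 13 members were below WT, where 10.8% of all tested genes were. Prkcb, the beta isoform of protein kinase C (chromosome 7, 122288751 to 122634402), had 31082, 41326 and 34295 normalized counts in SCA1 KI cortex against 69985, 70253 and 63037 in WT cortex. With 27599, 26754 and 26560 in SCA1 KI cerebellum, its regional LFC was 0.39 ± 0.10 in SCA1 KI and 1.47 in WT (interaction -1.08 ± 0.14, adjusted p = 8.84e-04). Camkk2, the kinase that activates CaMKI and CaMKIV (chromosome 5, 122731170 to 122779409), had 6732, 7916 and 7845 in SCA1 KI cortex and 9386, 8624 and 8539 in SCA1 KI cerebellum (LFC -0.24 ± 0.11, not called), against 0.78 in WT (interaction -1.02 ± 0.16). The regional call of Prkcb in SCA1 KI was lost once the dependence on transcript length and GC content was taken out. In the WT cortices Camkk2 was at 17587, 19297 and 17967. Camk2n1, an inhibitor of CaMKII, was narrowed (2.55 in SCA1 KI and 3.57 in WT), Prkce was too (0.36 and 1.06), and Camk4, a kinase of granule cells, was widened toward cerebellum, with 9143, 11844 and 9155 normalized counts in SCA1 KI cortex and 19931, 20994 and 19810 in WT cortex. Camk2a was lower in SCA1 KI than in WT in both regions, with 177891, 167504 and 188418 normalized counts in WT cortex and 6982, 5315 and 5972 in WT cerebellum, and its regional difference had no interaction call (interaction -0.12 ± 0.13).

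Genes that the study itself examined included Prkcb and Camkk2. The study chose them with these samples in hand, so their direction in these libraries is no independent evidence. By RT-qPCR and Western blot at the same age, the study reported both as lower in SCA1 KI cortex and not in the cerebellum. Atxn1 had 4604, 7249 and 6267 normalized counts in SCA1 KI cortex and 3812, 3717 and 4138 in SCA1 KI cerebellum (LFC 0.61 ± 0.13, adjusted p = 1.06e-03), and the interaction of -0.38 ± 0.18 was not called (adjusted p = 0.256). Rbfox3, which encodes the neuronal marker NeuN, was inverted with calls in both genotypes, with 9825, 10097 and 9271 in SCA1 KI cortex against 16556, 15240 and 16136 in WT cortex, and 13689, 12259 and 12209 in SCA1 KI cerebellum (LFC -0.39 ± 0.10 in SCA1 KI and 0.34 in WT). By imaging of the motor cortex at the same age, the study found no significant loss of NeuN-positive neurons. Sqstm1, which encodes p62, was higher in cortex in both genotypes (0.73 and 0.50), and so was the microglial gene Aif1 (2.00 and 1.77). Gfap of astrocytes was higher in cerebellum (-0.51 in both, a call that was lost in SCA1 KI when libraries were left out), and none of the last 3 had an interaction call.

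Taken over all regional genes, the size of the difference moved little. Among 5087 genes that were cortex-high on the mean of both genotypes, the absolute regional LFC was smaller in SCA1 KI for 46.3%, with a median change of 0.028, and among 4904 cerebellum-high genes it was smaller for 47.3%, with a median change of 0.017. Of the 2020 cortex-high genes with an LFC over 1, 42.1% had a smaller difference in SCA1 KI (median change 0.11), and of 1536 such cerebellum-high genes 50.6% did (median change -0.0058). The median interaction over all tested genes was 0.0082.

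Exons of another annotated gene overlap part of Adra1d, Arpp21, Atxn1, Camk4, Cux1, Dlx1, Dlx6, Dusp1, Ece2, Foxp1, Gpd1, Gpr158, Grin1, Grin2b, Grin2c, Grm2, Homer3, Il16, Islr2, Itpr1, Kctd12, Lgals8, Lhx6, Mab21l1, Mapk4, Mgll, Ncald, P2ry12, Pcp2, Plcb1, Plcb3, Prkce, Ptpn3, Reln, Shank3, Shox2, Slc1a2, Sox5, Sqstm1, Tfap2d and Zic1. Reads of such a stretch may be lost or shared in the counting, whose use of strand is not given in the sources used here.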

How the data were processed

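RNA-seq of poly-adenylated RNA from whole cortex and whole cerebellum was taken from 12 libraries in 4 groups of 3. The authors aligned paired-end reads to mm10 with STAR, counted them per gene with featureCounts and divided them by DESeq2 size factors (versions not given in the sources used here). The deposited values are therefore a normalized signal, and multiplied by the size factor 100% of them gave whole reads (tolerance 0.1 reads). Groups came from the labels, and each column was matched to its group by name. Counting error and the spread between 3 libraries limit the precision, and replicate pairs differed by 7.60 to 36.9 chi-square units per gene.

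Genes averaging 10 or more normalized counts were fitted with limma 3.58.1 (lmFit, eBayes with trend, R 4.3.3) on log2(value + 1), all 12 libraries sharing 1 estimate of the spread. Contrasts were the regional difference in SCA1 KI and in WT, their difference (interaction) and the genotype difference in each region. P-values are two-sided and Benjamini-Hochberg adjusted. The fits were tested on simulated data. Alternatives were pseudocounts of 0.5 and 5, no minimum or a minimum of 100, other scalings, edgeR 4.0.16 and DESeq2 1.42.0 on the recovered whole reads, thinned reads, other thresholds, and leaving out libraries.

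Genes are named by 4 rules: the 8 largest regional LFC in each direction among called genes whose SCA1 KI libraries did not overlap and whose lower group averaged at least 50 normalized counts, the 5 or 6 smallest interaction p of each class among genes averaging at least 50, members of the gene lists, and genes the study examined. The comparison, the lists and the rules were chosen with earlier results of these data known. Symbols (15009 of 15758) were matched to GENCODE vM21 (GRCm38) for coordinates. Transcript length and GC content were known for 95.3% of the tested genes. No sequence carries these findings, and none is shown. Some genes of the lists are not reported here.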

Additional observations from a re-analysis of the deposited data

Results flagged for a closer look

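The regional difference differed between SCA1 KI and WT for 1253 genes by the interaction test in limma, and the values of the named ones are given here as regional LFC of SCA1 KI minus that of WT. Groups of 3 libraries were too small for a search for single outlying samples.

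Among narrowed cortex-high genes the interaction was -0.98 for Mgll, -0.92 for Ly6e, -0.84 for Plcb1, -1.84 for Stard8, -0.94 for Ptpn3 and -1.47 for Adra1d. Narrowed cerebellum-high genes had values of 0.84 for Kctd12, 3.06 for Tcf7l2, 0.67 for Klhl4, 0.87 for Ece2, 0.65 for Lgals8 and 1.95 for Ucma. Among widened cerebellum-high genes the values were -1.51 for Gpd1, -1.86 for Proser2, -1.86 for Gabrd, -0.98 for Whrn, -2.56 for Tspan11 and -0.67 for Mapk6. Widened cortex-high genes had 3.52 for Nrgn, 2.83 for Cpne6, 3.29 for Crhbp, 2.79 for Gda, 3.19 for Zfp831 and 1.37 for Rasal1. Inverted genes had 9.35 for Pou4f1, 6.56 for Tfap2d, 10.46 for Shox2, -0.98 for Mapk4 and -2.20 for Endou. Gained genes had -0.97 for Lynx1, 4.17 for Tal1, -0.91 for Cux1, 1.29 for Ahi1 and -0.95 for Gpr158. The values of Crhbp, Zfp831, Pou4f1, Tfap2d and Shox2 rest on groups with a few reads per library, so that their size depends on the pseudocount. The transcripts of neighbouring tissue in the WT cerebella move with Tcf7l2, the 6 widened cortex-high genes, Pou4f1, Tfap2d, Shox2 and Tal1, and their part in these values was not tested. Pou4f1, Shox2 and Tal1 were also higher in SCA1 KI than in WT cortex, where the summed level of 21 midbrain genes was 1419 to 2952 in SCA1 KI and 803 to 984 in WT, and the part of that was not tested either.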

How the results depend on the processing

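The interaction calls of the 34 genes chosen by the smallest p or the largest LFC and listed above kept their direction and stayed called under the alternatives that gave them a value. With a limit of 1 on the absolute LFC the regional genes of SCA1 KI numbered 2089 toward cortex and 1533 toward cerebellum, and with the same limit on the interaction there were 403 interaction genes, 66 and 27 narrowed on the cortical and cerebellar side, 122 and 17 widened, 39 inverted and 99 gained. Taking the usual regional difference from the mean of the genotypes gave 93 inverted and 131 gained genes. Leaving out 1 library at a time, SCA1 KI regional genes higher in cortex ranged from 4658 to 4944 and SCA1 KI regional genes higher in cerebellum from 4442 to 4725, and the interaction genes from 783 to 1267. Narrowed genes then ranged from 229 to 384 on the cortical side and from 48 to 136 on the cerebellar side, widened genes from 139 to 295 and from 95 to 172, inverted genes from 121 to 199 and gained genes from 135 to 224. The other 199 counts under alternatives stayed within 1.5 times the count reported. The regional LFC of Grin2d in SCA1 KI turned to -0.030 (adjusted p = 0.83) once each library's dependence on transcript length and GC content was taken out, and the cause was not tested. edgeR called 1294 interaction genes and DESeq2 1755. No paired analysis was possible because the columns carry none of the replicate numbers that the labels give.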
